A study of Mus musculus with 4 samples.

Results

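The Slc38 family of sodium-coupled neutral amino acid transporters was followed in mouse early blastocysts made by somatic cell nuclear transfer (SCNT) or by in vitro fertilization (IVF). Its members were the 9 gene symbols Slc38a1, Slc38a2, Slc38a3, Slc38a4, Slc38a5, Slc38a6, Slc38a7, Slc38a9 and Slc38a10, each found by an exact match of its symbol among the 23235 symbols of the deposited tables. RNA-seq covered 2 SCNT libraries and 2 IVF libraries, each made from 6 embryos lysed together 96 hours after activation or fertilization. In SCNT an oocyte is emptied of its own nucleus and given one from a body cell. The SCNT embryos received nuclei of mouse embryonic fibroblasts that were heterozygous for an Xist knockout, from 129S1/SvImj mothers carrying that knockout and CAST/EiJ fathers, and the recipient oocytes came from B6D2F1/J (BDF1) females. For IVF, oocytes of Xist knockout females (129S1/Svj background) were fertilized with wild-type CAST/EiJ sperm, so both groups carried 129S1 and CAST genomes and the knockout. The method of making the embryo and the strain of the oocyte therefore moved together and cannot be told apart. The headers of the SCNT columns name Kdm4d, which encodes an enzyme that removes methyl groups from histone H3, while the labels are silent on it. Any use of Kdm4d in the SCNT embryos would move with the group too and could not be told apart from it. Kdm4d RNA was listed at 0.0649 and 0.117 FPKM in SCNT libraries 1 and 2 and at 0 and 0.0382 FPKM in IVF libraries 1 and 2. Xist was listed at 4.13 and 3.33 FPKM in SCNT libraries 1 and 2 and at 1.09 and 13.9 FPKM in IVF libraries 1 and 2, so the IVF libraries enclosed the SCNT values. Which part of Xist the knockout removes is not given, so these levels do not check the genotype.

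Slc38 proteins move small neutral amino acids such as glutamine and alanine across membranes together with sodium ions. Slc38a1, Slc38a2 and Slc38a4 work at the cell surface as the classical system A, Slc38a3 and Slc38a5 as system N, which also exchanges protons and prefers glutamine, histidine and asparagine, and Slc38a7 and Slc38a9 sit on the lysosome. The genes of the system A transporters lie side by side on mouse chromosome 15. Slc38a4 is known in mouse as a gene expressed mainly from the paternal allele in early embryos and placenta, where H3K27me3, a repressive histone mark, covers the maternal copy. The title of the series asks about that kind of imprinting in SCNT embryos. The deposited values give 1 total per gene with no split by parental allele.

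The start regions of Slc38a2 and Slc38a4 are shown because in both genes each SCNT library had more FPKM than either IVF library, and because they differ in their content of the dinucleotide CG, where mammalian DNA is methylated. The sequences are from RefSeq on GRCm38.p6, which is not the build the authors used (mm9). They run 5′ to 3′ on the gene's own strand from 250 bases before to 50 bases after the annotated start, with each CG in capitals. The Slc38a2 region is chr15:96699679-96699978 and the farthest upstream of 3 annotated Slc38a4 regions is chr15:97055907-97056206, both on the minus strand.
Slc38a2: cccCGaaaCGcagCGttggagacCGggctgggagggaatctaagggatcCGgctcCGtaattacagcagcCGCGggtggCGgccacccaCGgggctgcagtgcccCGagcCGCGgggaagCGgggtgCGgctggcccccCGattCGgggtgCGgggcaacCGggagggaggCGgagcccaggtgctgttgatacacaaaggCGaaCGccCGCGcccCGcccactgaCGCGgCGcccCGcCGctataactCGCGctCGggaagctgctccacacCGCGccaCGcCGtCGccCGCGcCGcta
Slc38a4: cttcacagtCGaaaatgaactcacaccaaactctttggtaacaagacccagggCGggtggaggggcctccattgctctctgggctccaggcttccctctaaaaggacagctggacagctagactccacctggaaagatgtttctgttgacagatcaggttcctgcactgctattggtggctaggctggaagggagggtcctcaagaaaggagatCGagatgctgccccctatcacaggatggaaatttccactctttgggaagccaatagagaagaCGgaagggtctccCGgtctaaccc
The Slc38a2 region held 41 CG in 300 bases, more than 96.5% of the 32851 RefSeq start regions of the same length, whose median was 7. Each of the 3 Slc38a4 regions held 5. Among the other members, the region of Slc38a6 held 26 CG, that of Slc38a10 held 17, that of Slc38a9 held 16, and those of Slc38a5 and Slc38a7 held 10 each. For Slc38a1 and Slc38a3 no region is shown. The GC box GGGCGG, searched on both strands and containing a CG itself, occurred once in the Slc38a2 region and once in the Slc38a4 region shown, and 35.7% of all start regions held it. CCAAT occurred in neither strand of the Slc38a2 region and 2 times in the Slc38a4 region shown, against 37.4% of all start regions with at least 1. The letters TGATGNAA, the core that ATF4 and its partners bind, were in none of the members' regions on either strand, and 3.97% of all start regions held them. Only these 300 bases per region were searched, so a site elsewhere in or near a gene would be missed.

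The levels were taken to be FPKM, fragments per kilobase of transcript scaled to the mapped total, so they can be set side by side between genes. That unit is inferred. Per library, FPKM over all symbols summed to 933167 to 985197, and 10802 to 10923 genes had at least 1 FPKM. The depth behind each value, and so its counting error, is unknown. The trophectoderm marker Krt8, the inner cell mass markers Pou5f1 and Nanog and the primitive endoderm marker Gata6 were at 74.9 FPKM or more in every library. Differences below are on the log2(FPKM + 1) scale, SCNT minus IVF, a scale on which changes of low genes look smaller than they are. Tests are limma over the 11039 genes with a mean of at least 1 FPKM, with the p-value adjusted over all of them and 0.05 as the threshold. The labels do not say whether replicate libraries had different parents or were made on different days, so a p-value here reflects the spread among these libraries, which may be technical.

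Slc38a4 was the most abundant member in every library, and the 3 genes of the chromosome 15 cluster were the members for which each SCNT library was above either IVF library. The other members either stayed within overlapping ranges or were near or below 1 FPKM. Of the 9 members, 6 reached a mean of 1 FPKM and were tested (Slc38a1, Slc38a2, Slc38a4, Slc38a6, Slc38a7 and Slc38a10), and each of these 6 was above 1 FPKM in all 4 libraries. None passed the adjusted threshold, which 0.127% of all tested genes did. At an unadjusted p under 0.05, 3 of the 6 were higher in SCNT and 0 lower, where the shares over all tested genes were 4.25% and 2.84%. The same 3 had groups that did not overlap, against 18.3% of all tested genes with SCNT higher. The median difference of the 6 tested members was 0.50, beside 0.013 over all tested genes. It was 0.13 over all 9 members with no filter and 0.15 over the 5 members that reached a mean of 5 FPKM. Slc38a11, a family gene outside the 9 members, also reached the filter. Its difference of -0.92 ± 0.47 is in none of these medians.

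**Figure D1:**
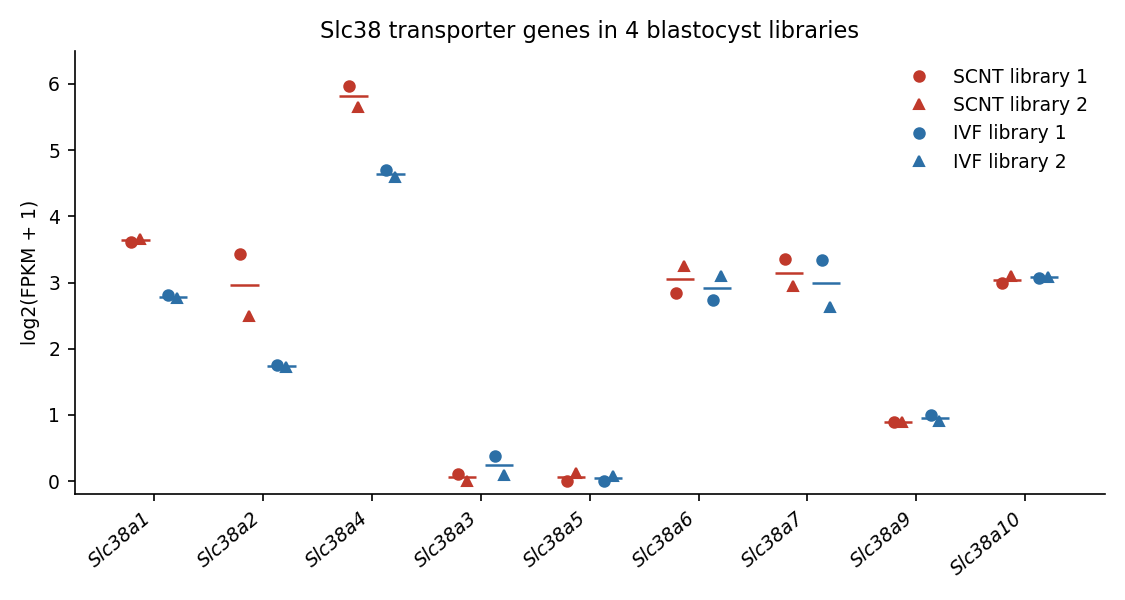
Level of each Slc38 gene as log2(FPKM + 1) on the vertical axis, for SCNT libraries (red) and IVF libraries (blue); circles are libraries numbered 1, triangles libraries numbered 2, and short lines group means. The red points lie above the blue points for Slc38a1, Slc38a2 and Slc38a4, and Slc38a4 is the highest gene in all 4 libraries.

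Slc38a4, the system A transporter that is imprinted in mouse, was listed at 61.9 and 49.5 FPKM in SCNT libraries 1 and 2 and at 24.9 and 23.0 FPKM in IVF libraries 1 and 2. The lower SCNT library was above the higher IVF library by more than the spread within either group. The mean was 55.7 ± 8.78 FPKM in SCNT and 24.0 ± 1.33 FPKM in IVF (SD, 2 libraries each), a ratio of 2.32. Its log2 difference was 1.17 ± 0.19 (SE), with a 95% interval of 0.68 to 1.67, an unadjusted p of 0.00166 and a limma adjusted p of 0.274. By p-value it ranked at place 67 of the 11039 tested genes. The gene had a higher mean level than 77.6% of them.

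Slc38a1, a system A transporter that carries glutamine into many cell types, had 11.2 and 11.6 FPKM in SCNT libraries 1 and 2 and 6.01 and 5.81 FPKM in IVF libraries 1 and 2. The SCNT libraries were closer together for this gene than for the other cluster genes, and the groups did not overlap. The mean was 11.4 ± 0.250 FPKM in SCNT and 5.91 ± 0.140 FPKM in IVF, a ratio of 1.93. On the log2 scale that was 0.85 ± 0.16 (95% interval 0.43 to 1.27), with an unadjusted p of 0.00341 and a limma adjusted p of 0.320. In SCNT the mean of Slc38a1 lay above those of Slc38a10, Slc38a7 and Slc38a6, and in IVF it lay below all 3.

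Slc38a2, the system A transporter that cells raise when amino acids are short, was at 9.79 and 4.63 FPKM in SCNT libraries 1 and 2, and at 2.37 and 2.30 FPKM in IVF libraries 1 and 2. Both SCNT libraries were above both IVF libraries, but SCNT library 1 was far above SCNT library 2. The mean was 7.21 ± 3.65 FPKM in SCNT and 2.34 ± 0.0482 FPKM in IVF, a ratio of 3.08, the highest of the 3 genes and the one with the widest spread. Its difference was 1.22 ± 0.34 (95% interval 0.36 to 2.09), with an unadjusted p of 0.0150 and a limma adjusted p of 0.506. Without SCNT library 1 the difference was 0.75, and without SCNT library 2 it was 1.69.

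**Figure D2:**
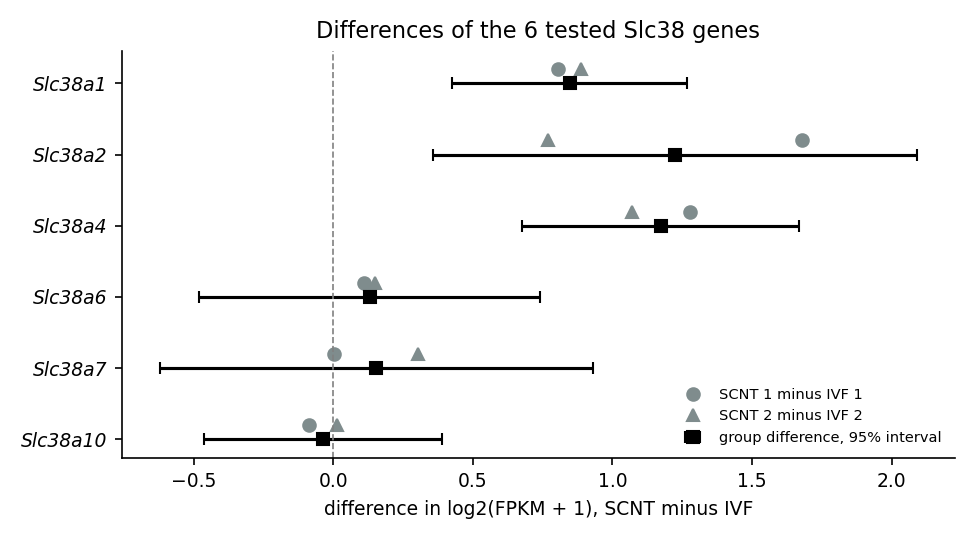
Difference in log2(FPKM + 1), SCNT minus IVF, for the 6 tested Slc38 genes: black squares are the group difference with its 95% interval, grey circles SCNT library 1 minus IVF library 1 and grey triangles SCNT library 2 minus IVF library 2. The intervals of Slc38a1, Slc38a2 and Slc38a4 lie above 0, while those of Slc38a6, Slc38a7 and Slc38a10 include it.

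Within a library, the levels of the cluster genes can be set against each other without any scaling between libraries. Slc38a4 had 6.32 and 10.7 times the FPKM of Slc38a2 in SCNT libraries 1 and 2, against 10.5 and 10.0 times in IVF libraries 1 and 2. Slc38a1 likewise had 1.15 and 2.51 times the FPKM of Slc38a2 in SCNT libraries 1 and 2, against 2.53 and 2.52 times in IVF libraries 1 and 2. In SCNT library 2, then, the 3 genes kept nearly the proportions they had in IVF, and in SCNT library 1 Slc38a2 was higher relative to both partners. The ratio of Slc38a4 to Slc38a1 was 5.50 and 4.26 in SCNT libraries 1 and 2 and 4.15 and 3.97 in IVF libraries 1 and 2. An exact permutation test of 2 libraries against 2 cannot go below a two-sided p of 0.33, so these ratios are given without a test.

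Slc38a10, a broadly expressed member whose protein carries glutamine and alanine, had 6.93 and 7.53 FPKM in SCNT libraries 1 and 2 and 7.43 and 7.44 FPKM in IVF libraries 1 and 2. It was the steadiest of the tested members, and the SCNT libraries enclosed the IVF values. Its difference was -0.037 ± 0.17, with a 95% interval of -0.46 to 0.39 (limma adjusted p = 0.9996). Set against Slc38a10 in the same library, Slc38a4 stood at 8.93 and 6.57 in SCNT libraries 1 and 2 and at 3.35 and 3.10 in IVF libraries 1 and 2. Slc38a1 per Slc38a10 was 1.62 and 1.54 in the SCNT libraries and 0.808 and 0.780 in the IVF libraries. Both cluster genes were apart between the groups on this internal scale. Slc38a10 itself hardly differed between the groups, so the ratios repeat that separation and do not test it.

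Slc38a6, whose substrates are less well known, was listed at 6.17 and 8.53 FPKM in SCNT libraries 1 and 2 and at 5.64 and 7.59 FPKM in IVF libraries 1 and 2. Slc38a7, a lysosomal member that exports glutamine and asparagine into the cytosol, had 9.18 and 6.68 FPKM in SCNT libraries 1 and 2 and 9.16 and 5.22 FPKM in IVF libraries 1 and 2. For both genes the libraries separated by their number and not by group, with Slc38a6 higher in the libraries numbered 2 and Slc38a7 higher in those numbered 1. The log2 difference between numbers, number 1 minus number 2, was -0.39 for Slc38a6 and 0.56 for Slc38a7, beside group differences of 0.13 ± 0.24 and 0.15 ± 0.30. The 95% intervals of the group differences ran over -0.48 to 0.74 and over -0.62 to 0.93, so a change of the size seen for Slc38a1 could be missed for Slc38a7. The limma adjusted p was 0.9996 for each.

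Slc38a9, the lysosomal arginine sensor that feeds into the growth kinase mTORC1, lay just under the filter with a mean of 0.898 FPKM. It was at 0.850 and 0.855 FPKM in SCNT libraries 1 and 2 and at 1.01 and 0.883 FPKM in IVF libraries 1 and 2, so the SCNT values were lower by a small margin. Without the filter its difference was -0.069 ± 0.12 (limma adjusted p = 0.972). The system N genes were near 0. Slc38a3 was listed at 0.0802 and 0 FPKM in SCNT libraries 1 and 2 and at 0.304 and 0.0686 FPKM in IVF libraries 1 and 2. Slc38a5 was listed at 0 and 0.0901 FPKM in SCNT libraries 1 and 2 and at 0 and 0.0589 FPKM in IVF libraries 1 and 2. At such levels no difference between the groups was detectable for either gene.

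Summed over the 9 members, the family reached 106 and 89.4 FPKM in SCNT libraries 1 and 2 and 56.8 and 52.4 FPKM in IVF libraries 1 and 2, a ratio of means of 1.79. The 3 cluster genes together made 74.3 ± 12.2 FPKM in SCNT and 32.2 ± 1.52 FPKM in IVF. The other 6 members together made 23.5 ± 0.332 FPKM in SCNT and 22.4 ± 1.61 FPKM in IVF, a difference of 1.05 FPKM that was smaller than the spread between the IVF libraries. Slc38a4 alone took 58.3% and 55.3% of the family sum in SCNT libraries 1 and 2 and 43.8% and 44.0% in IVF libraries 1 and 2. Leaving Slc38a4 out, the family sum was 42.1 ± 3.07 FPKM in SCNT and 30.6 ± 1.80 FPKM in IVF. In SCNT the order of mean levels was Slc38a4, Slc38a1, Slc38a7, Slc38a6, Slc38a10, Slc38a2, Slc38a9, Slc38a5 and Slc38a3, with the neighbours from Slc38a7 to Slc38a2 and the last pair overlapping in range. In IVF it was Slc38a4, Slc38a10, Slc38a7, Slc38a6, Slc38a1, Slc38a2, Slc38a9, Slc38a3 and Slc38a5, with the neighbours from Slc38a10 to Slc38a1 overlapping.

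**Figure D3:**
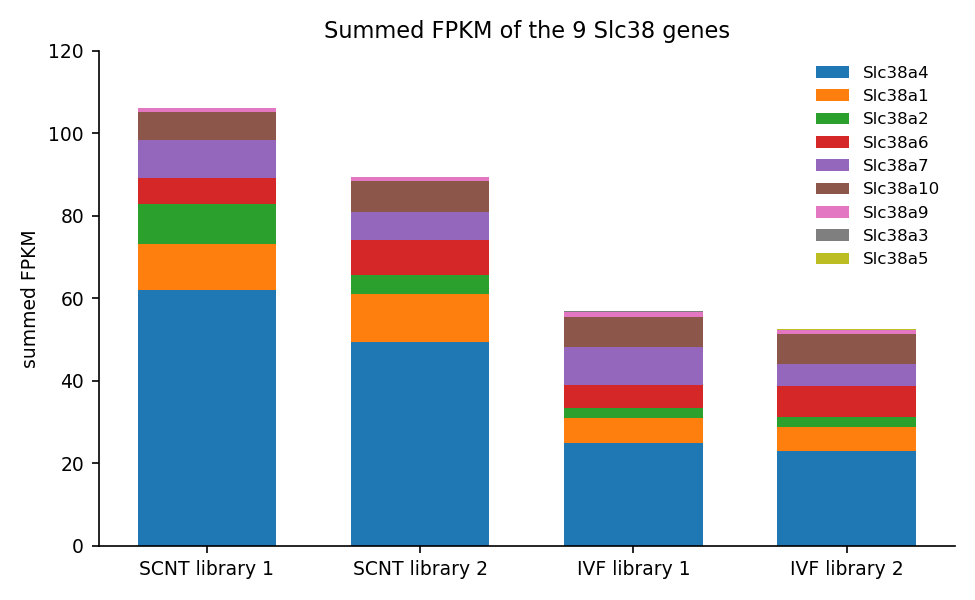
FPKM of the 9 Slc38 genes stacked by library, SCNT libraries to the left of IVF libraries; each colour is 1 gene. The bars reach 106 and 89.4 FPKM in SCNT and 56.8 and 52.4 FPKM in IVF, and the bottom 3 colours (Slc38a4, Slc38a1 and Slc38a2) hold most of the difference.

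The neighbouring protein-coding genes on chromosome 15, 4 on each side of the cluster in the RefSeq order of GRCm38.p6, were read next. Of these 8 genes, 6 are listed in the tables and 4 were tested. On the Slc38a1 side, Scaf11, which encodes a splicing-related protein, was at 10.8 and 11.9 FPKM in SCNT libraries 1 and 2 and at 13.2 and 11.6 FPKM in IVF libraries 1 and 2, and Arid2, a chromatin remodelling subunit, differed by 0.044 ± 0.18. On the Slc38a4 side, Amigo2, a cell adhesion gene and the nearest neighbour, was under 1 FPKM in every library, and Pced1b, listed under its older symbol Fam113b, differed by 0.21 ± 0.26. Rpap3, a cochaperone of RNA polymerase assembly, was at 31.9 and 28.4 FPKM in SCNT libraries 1 and 2 and at 27.1 and 19.8 FPKM in IVF libraries 1 and 2, a difference of 0.36 ± 0.22. Endou was at most 0.0739 FPKM. None of the 4 tested neighbours had an unadjusted p under 0.05 (limma adjusted p from 0.898 to 0.9996). The groups overlapped for each of them except Rpap3, where SCNT was higher. Over all tested genes, groups that did not overlap made up 18.3% with SCNT higher and 15.1% with SCNT lower.

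**Figure D4:**
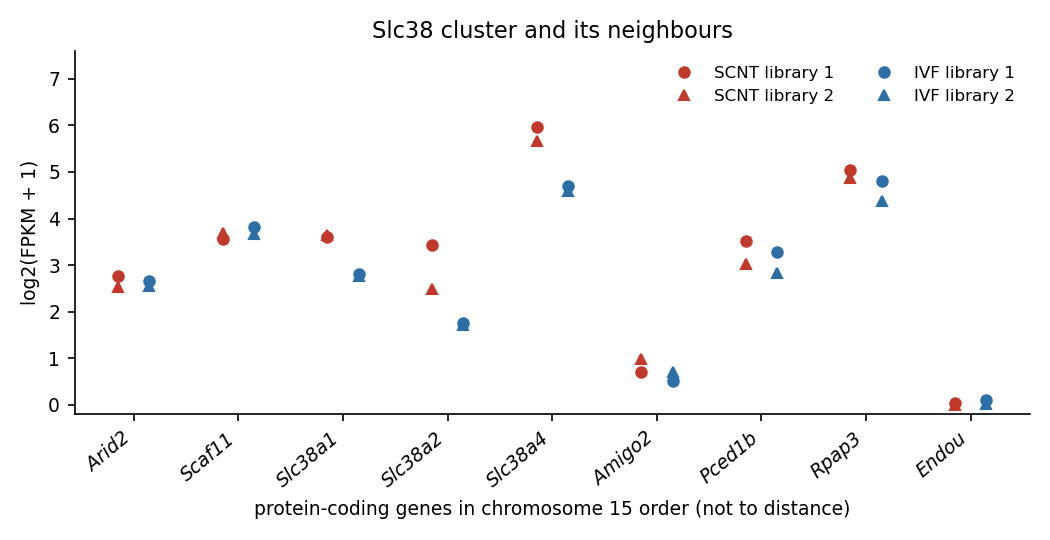
Levels as log2(FPKM + 1) of the Slc38 cluster and its listed protein-coding neighbours in their chromosome 15 order, with SCNT in red to the left of IVF in blue for each gene; circles and triangles are libraries numbered 1 and 2. Red and blue points are apart at Slc38a1, Slc38a2, Slc38a4 and Rpap3 and overlap at the other genes.

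The genes whose profile over the 4 libraries lay nearest to each cluster gene were found by the Euclidean distance between log2(FPKM + 1) values centred on each gene's own mean. Nearest to Slc38a4 were the predicted gene E530001F21Rik (distance 0.082), Gsta1, a glutathione transferase gene whose reads can be shared with close copies (0.12), and Rcn3, which encodes a calcium-binding protein of the endoplasmic reticulum (0.16). Gsta1 was at only 0.226 and 0.129 FPKM in IVF libraries 1 and 2. It reached the filter through its SCNT levels of 2.09 and 1.63 FPKM alone. Nearest to Slc38a1 were Slc13a5, a sodium-coupled citrate transporter gene (0.067), Pja1, a ubiquitin ligase gene (0.10), and Upk1b, a uroplakin gene (0.10). Nearest to Slc38a2 were Ptk6, a tyrosine kinase gene (0.18), Trib3, a stress-induced pseudokinase gene (0.21), and Soat1, which esterifies cholesterol (0.24). The distance from Slc38a4 to Slc38a1 was 0.42 and that to Slc38a2 was 0.45, with 55 and 70 tested genes nearer to Slc38a4. Slc38a1 and Slc38a2 were farther apart, at 0.79, with 3144 tested genes nearer to Slc38a1. With 4 libraries such a distance mostly records the group difference and the spread within the groups.

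Beyond the family, a list of 35 amino acid transporter genes of other families gave 15 tested genes, of which 0 passed the adjusted threshold. At an unadjusted p under 0.05 with limma, 5 were higher in SCNT and 1 lower, where the shares over all tested genes were 4.25% and 2.84%. The median difference was 0.36, beside 0.013 over all tested genes. The count of 6 became 3 with a filter at 5 FPKM, 9 with no filter and 7 with the replicate number as a block. Slc7a8, a light chain that exchanges neutral amino acids, was at 3.62 and 2.57 FPKM in SCNT libraries 1 and 2 and at 0.543 and 0.388 FPKM in IVF libraries 1 and 2. Slc7a3, a cationic amino acid transporter gene, was at 3.41 and 2.12 FPKM in SCNT libraries 1 and 2 and at 0.519 and 0.653 FPKM in IVF libraries 1 and 2. Both lay under 1 FPKM in IVF and reached the filter through their SCNT levels alone. Both are among the 5 counted as higher and enter the median, so the filter had a part in these summaries. Their differences were 1.47 ± 0.22 and 1.23 ± 0.24 (limma adjusted p of 0.224 and 0.320). Slc16a10, named after its values were seen, reached the filter through its IVF levels alone and also enters the median. It was at 0.840 and 0.695 FPKM in SCNT libraries 1 and 2 and at 1.68 and 1.16 FPKM in IVF libraries 1 and 2 (difference -0.44).

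Slc7a7, a light chain that exports cationic amino acids, had 15.2 and 12.3 FPKM in SCNT libraries 1 and 2 and 7.44 and 6.43 FPKM in IVF libraries 1 and 2. That was a difference of 0.89 ± 0.19 (limma adjusted p = 0.382), close in size to that of Slc38a1. Slc6a14, a transporter of broad range driven by sodium and chloride, differed by 0.68 ± 0.20, and Slc7a1, the widespread cationic amino acid transporter, by 0.63 ± 0.22. Slc6a6, which carries taurine and is named after its values were seen, was the lower one, at 6.93 and 7.89 FPKM in SCNT libraries 1 and 2 and at 11.2 and 10.2 FPKM in IVF libraries 1 and 2 (difference -0.48 ± 0.17, limma adjusted p = 0.656). Slc3a2, the heavy chain that partners the Slc7 light chains, differed by 0.21 ± 0.19, its partner Slc7a5 by 0.58 ± 0.27, and Slc1a5, a glutamine exchanger, by 0.027 ± 0.28. None of these 3 had an unadjusted p under 0.05. The list also holds Slc6a8, which carries creatine and not an amino acid used for protein, with a difference of 0.059.

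**Figure D5:**
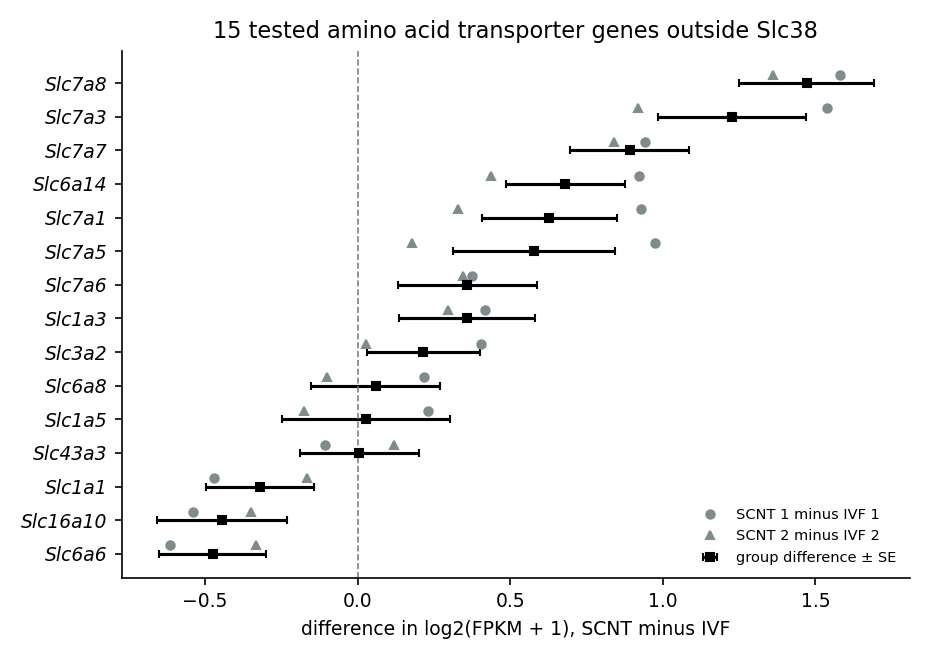
Difference in log2(FPKM + 1), SCNT minus IVF, for 15 tested amino acid transporter genes outside the Slc38 family: black squares with bars are the group difference ± SE, grey circles and triangles the differences within the libraries numbered 1 and 2. Estimates run from -0.48 for Slc6a6 to 1.47 for Slc7a8, and 12 of the 15 lie above 0.

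The lysosomal machinery that Slc38a9 and its Rag GTPase partners report to had estimates on both sides of 0, 13 higher and 15 lower in SCNT. Of 29 listed genes 28 were tested, and with limma 0 passed the adjusted threshold and 0 had an unadjusted p under 0.05. Over all tested genes the shares at that unadjusted p were 4.25% higher and 2.84% lower. The median difference of the list was -0.016. Rragd, a Rag GTPase gene, had the smallest unadjusted p of that list (0.0818), at 23.0 and 22.1 FPKM in SCNT libraries 1 and 2 and 32.4 and 27.4 FPKM in IVF libraries 1 and 2. Akt1s1, an mTORC1 inhibitor gene, differed by 0.29, Flcn, which activates Rag GTPases, by 0.23, and the stress-induced inhibitor genes Sesn3 and Sesn1 by -0.27 and -0.28. Enzymes that use or make glutamine and alanine, 18 of 19 tested, had a median of 0.048. In that list Aldh18a1, which makes the precursor of proline, was the 1 gene with an unadjusted p under 0.05, at 19.9 and 12.4 FPKM in SCNT libraries 1 and 2 and 6.70 and 4.91 FPKM in IVF libraries 1 and 2 (difference 1.31 ± 0.29, limma adjusted p = 0.382). The alanine transaminase gene Gpt differed by -0.26, Ppat, of purine synthesis, by -0.15, and Asns, asparagine synthetase, by 0.0057.

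Genes of the ATF4 response, the transcription programme that cells start when amino acids run short, are given because Slc38a2 is a known member of it. Of 16 listed genes 14 were tested, and none passed the adjusted threshold with limma. At an unadjusted p under 0.05, 4 were higher and 0 lower, where the shares over all tested genes were 4.25% and 2.84%. The median difference was 0.36, beside 0.013 over all tested genes. Estimates were higher for 12 genes and lower for 2. Of the lower ones Eif4ebp1, named after its values were seen, differed by -0.44 ± 0.25, and its groups did not overlap. Ddit3, a stress transcription factor gene, was at 74.2 and 108 FPKM in SCNT libraries 1 and 2 and at 22.0 and 38.2 FPKM in IVF libraries 1 and 2. Trib3 was at 16.4 and 8.52 FPKM in SCNT libraries 1 and 2 and at 3.70 and 4.37 FPKM in IVF libraries 1 and 2. Both were apart between groups. Trib3, like Slc38a2, was higher in SCNT library 1 than in SCNT library 2, and Ddit3 was higher in SCNT library 2. The likeness of Trib3 to Slc38a2 is no separate finding, as the same values made it a nearest profile above. Nupr1, a stress-induced chromatin protein gene, was at 110 and 10.3 FPKM in SCNT libraries 1 and 2 and at 1.06 and 3.0 FPKM in IVF libraries 1 and 2. Atf5 differed by 1.01 ± 0.30 and Cebpb by 0.53 ± 0.26. Atf4 itself differed by 0.28 ± 0.18, and Asns was at 104 and 65.5 FPKM in SCNT libraries 1 and 2 and at 88.4 and 76.5 FPKM in IVF libraries 1 and 2, within an overlapping range.

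Cell type markers were read beside these values, since in pooled embryos more cells of a type and more RNA per cell cannot be told apart. Of 12 trophectoderm markers, all tested, 9 had higher and 3 lower estimates in SCNT, with a median of 0.28. At an unadjusted p under 0.05 with limma, 4 were higher and 0 lower, against 4.25% and 2.84% of all tested genes. Those 4 were Elf5 (difference 1.63 ± 0.32), Eomes (0.95 ± 0.32), Cdx2 (0.63 ± 0.19) and Krt7 (0.54 ± 0.21). The 3 lower estimates were those of Hand1 (-0.35), Tfap2c (-0.21) and Tead4 (-0.079). The 12 markers summed to 6137 and 4060 FPKM in SCNT libraries 1 and 2. In IVF libraries 1 and 2 the sums were 4502 and 3702 FPKM, so the groups overlapped. Krt8 and Krt18 made up most of each sum. Krt18 alone was at 3979 and 2257 FPKM in SCNT libraries 1 and 2 and at 2647 and 1956 FPKM in IVF libraries 1 and 2. Inner cell mass and epiblast markers, 10 tested, had a median of -0.0077 and sums of 553 and 589 FPKM in SCNT and 505 and 547 FPKM in IVF. Primitive endoderm markers, 7 of 9 tested, had a median of 0.30, with 4 higher and 3 lower estimates. At an unadjusted p under 0.05 with limma, 3 were higher (Gata4, Lama1 and Sparc) and 0 lower, against the same 4.25% and 2.84%. The 9 markers summed to 219 and 212 FPKM in SCNT and 222 and 153 FPKM in IVF. Of 12 fibroblast markers, which the donor cells would express, 9 were under 1 FPKM in all 4 libraries and Twist2 was at 0 in all 4. Their sum was 8.49 and 1.41 FPKM in SCNT libraries 1 and 2 and 4.16 and 1.79 FPKM in IVF libraries 1 and 2, a range that overlapped. All 8 cumulus and granulosa markers were under 1 FPKM in every library, and Cyp19a1, Amh and Ptx3 were at 0 in all. MicroRNA and small nucleolar RNA genes took a share of all FPKM of 9.50% and 9.73% in SCNT and 12.4% and 12.2% in IVF, so it moved with the group. The part of the trophectoderm and primitive endoderm levels in the Slc38 differences was not tested. Rescaling every library to an equal sum without the short RNA genes gave differences of 1.12 for Slc38a4, 0.80 for Slc38a1 and 1.18 for Slc38a2.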

How the data were processed

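The 4 libraries (2 SCNT, 2 IVF) were grouped by sample title. The deposited values are read here as FPKM; the file headers give only a gene identifier and a library name, so the unit rests on the values and on the Cufflinks entry (2.2.1) among the tools. TopHat2 2.0.14 and Bowtie2 2.1.0 are the other tools, and mm9 the build, per the submitters' processing notes. Annotation, settings, strand use and scaling: not given in the sources used here. Per the labels' protocols, cDNA of lysed embryos was amplified with a SMARTer kit, which adds noise to low genes. The test was limma (version 3.58.1, R version 4.3.3) on log2(FPKM + 1) for the 11039 genes with a mean of at least 1 FPKM. It fitted a mean-variance trend with no covariate beside group, and p-values were adjusted by Benjamini-Hochberg over all of these genes. The fit was tested on simulated data, and no count test was used. The members and gene lists were chosen with earlier results of these data known. Named genes were all members, the 3 nearest profiles of each cluster gene, the 4 protein-coding neighbours on each side, up to 5 genes per list in order of unadjusted p, and 5 familiar genes; exceptions are marked, and some genes of the lists are not reported here. Older symbols were matched through RefSeq synonyms.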

Additional observations from a re-analysis of the deposited data

How the results depend on the processing

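With limma, the number of Slc38 genes passing the adjusted threshold was 0 under all 13 alternatives, and the 3 cluster genes kept a positive difference in each one that tested them; the filter at 5 FPKM left Slc38a2 untested. Their limma adjusted p ranged over 0.0848 to 0.712 for Slc38a4, 0.101 to 0.869 for Slc38a1 and 0.144 to 0.99982 for Slc38a2. The count at an unadjusted p under 0.05, whose alternatives were added after the data were seen, stayed at 3 except with the filter at 5 FPKM, where it was 2. The median difference of the tested members was 0.34 with a pseudocount of 5, 0.13 with no filter (9 members), 0.15 with the filter at 5 FPKM (5 members), and 0.54 to 0.69 on leaving out 1 library, where the lone library of a group is assumed to vary like the others. Leaving out 1 library raised the genes called over the whole table from 14 to between 45 and 53; the cause was not tested. On leaving out 1 library the difference ranged over -0.074 to 0.34 for Slc38a6, -0.20 to 0.51 for Slc38a7 and -0.089 to 0.015 for Slc38a10, crossing 0 each time. With the replicate number as a block, 20 genes were called over the whole table and 0 Slc38 genes. Deviations of same-numbered libraries correlated at 0.31 over tested genes, but the labels do not say that numbers pair libraries. The summed FPKM of the family stayed 34.7 to 51.5 FPKM higher in SCNT. With 2 libraries a group, no rule for outlying libraries could be applied.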

Other observations

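The tables also list the family genes Slc38a8 and Slc38a11, which are outside the 9 members. Slc38a11, a member with little known function, was at 0.179 and 1.5 FPKM in SCNT libraries 1 and 2 and at 1.42 and 3.35 FPKM in IVF libraries 1 and 2. Its libraries separated narrowly by number and overlapped narrowly by group. The differences were nearly equal, -0.96 for number 1 minus number 2 and -0.92 ± 0.47 for SCNT minus IVF (limma adjusted p = 0.852). Slc38a8 was under 0.4 FPKM in every library. Slc1a4, a transporter of alanine and serine under the filter, was at 1.43 and 1.01 FPKM in SCNT libraries 1 and 2 and at 0.465 and 0.514 FPKM in IVF libraries 1 and 2, and Slc6a15, a neutral amino acid transporter gene also under the filter, was at 0.203 and 0.168 FPKM in SCNT libraries 1 and 2 and at 1.40 and 1.05 FPKM in IVF libraries 1 and 2. These last genes were picked after their values were seen and were not tested.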
